A study of Mus musculus with 6 samples.

Results

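Liver sinusoidal endothelial cells line the capillaries of the liver lobule, and 10 of their transcripts were measured in primary hepatocyte preparations from alcohol-fed mice. The transcripts are Stab1, Stab2, Lyve1, Clec4g, Fcgr2b, Kdr, Ptprb, Aqp1, Dnase1l3 and Oit3, taken by gene name from the 25718 genes of the table, in which all 10 were present. Hepatocytes (parenchymal cells) were isolated by collagenase perfusion and Percoll separation from WT mice and from S100a16KO+/- mice, which the sample labels call S100A16 knockdown, with 3 libraries per genotype. S100a16KO+/- mice carry 1 deleted S100a16 allele, made from a floxed allele with EIIa-Cre, a Cre that acts in the early embryo, so that the deletion is not limited to hepatocytes. All mice of both genotypes were male, were between 8 and 10 weeks old and were given ethanol. They received a control liquid diet for 5 days and a liquid diet with 5% ethanol by volume for 10 days, and were collected 9 h after a single oral dose of 5 g/kg. The methods of the study keep isolated hepatocytes in culture medium, and whether these cells were cultured before RNA extraction is not given. No library without ethanol was part of the comparison. Whether a library held cells of 1 mouse or of several is not given in the sources used here, so that p-values measure the spread between these libraries.

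Sinusoidal endothelial cells have open pores without a diaphragm and no continuous basement membrane, so that plasma reaches the hepatocytes through them. They are known as the main scavenger cells of the blood for hyaluronan, modified proteins and small immune complexes, which they take up through stabilins, lectins and an Fc receptor. VEGF from neighbouring hepatocytes, acting on the receptor KDR, is known to maintain their pores. Hepatocytes do not line vessels, and these transcripts were taken here as markers of endothelial RNA within a hepatocyte preparation. Which cells they came from was not tested. In such bulk samples more endothelial cells, more RNA per endothelial cell and RNA of other cells cannot be told apart.

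Each library held between 67658095 and 71807834 estimated counts. Mitochondrial transcripts took 17.0% to 21.1% of them. S100a16, the targeted gene, had 1001, 1056 and 1107 counts in WT replicates 1, 2 and 3 against 433, 390 and 366 counts in S100a16KO+/- replicates 1, 2 and 3 (log2 fold change -1.40), so every library matched its label. WT replicate 1 and S100a16KO+/- replicate 2 stood apart from the other 4 libraries on the second principal component, and the count of called transcripts below was 10 with and without them. Hepatocyte markers dominated every library, with a summed level over 11 genes of 53492 to 54472 FPKM in WT and 54021 to 54995 FPKM in S100a16KO+/- libraries. The 10 endothelial transcripts together reached 81.3 to 88.8 FPKM in WT and 124.9 to 136.1 FPKM in S100a16KO+/- libraries, which was 0.0417% to 0.0456% and 0.0633% to 0.0688% of the counts.

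All 10 transcripts differed between the genotypes at an adjusted p under 0.05 in edgeR's quasi-likelihood test, against 22.8% of the 15957 tested genes. Of these, 9 were higher in S100a16KO+/- libraries, where 11.6% of the tested genes were higher, and 1, Lyve1, was lower, where 11.2% were lower. All 10 passed the filter on low counts, none of them in 1 genotype alone. Their log2 fold changes (S100a16KO+/- over WT) ran from -0.42 for Lyve1 to 0.73 for Fcgr2b, with a median of 0.63 beside a median of 0.01 over all tested genes. The WT and S100a16KO+/- CPM ranges did not overlap for any of the 10, as for 37.9% of the tested genes (19.2% higher and 18.6% lower). No transcript reached the 2-fold limit that the study set: with an unadjusted p under 0.05 and at least a 2-fold change, 0 of 10 were called by edgeR and 0 of 10 by DESeq2, although all 10 had an unadjusted p under 0.05 in both, as for 33.6% of the tested genes in edgeR. That criterion was met by 4.52% of the tested genes, 2.9% higher and 1.62% lower.

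**Figure D1:**
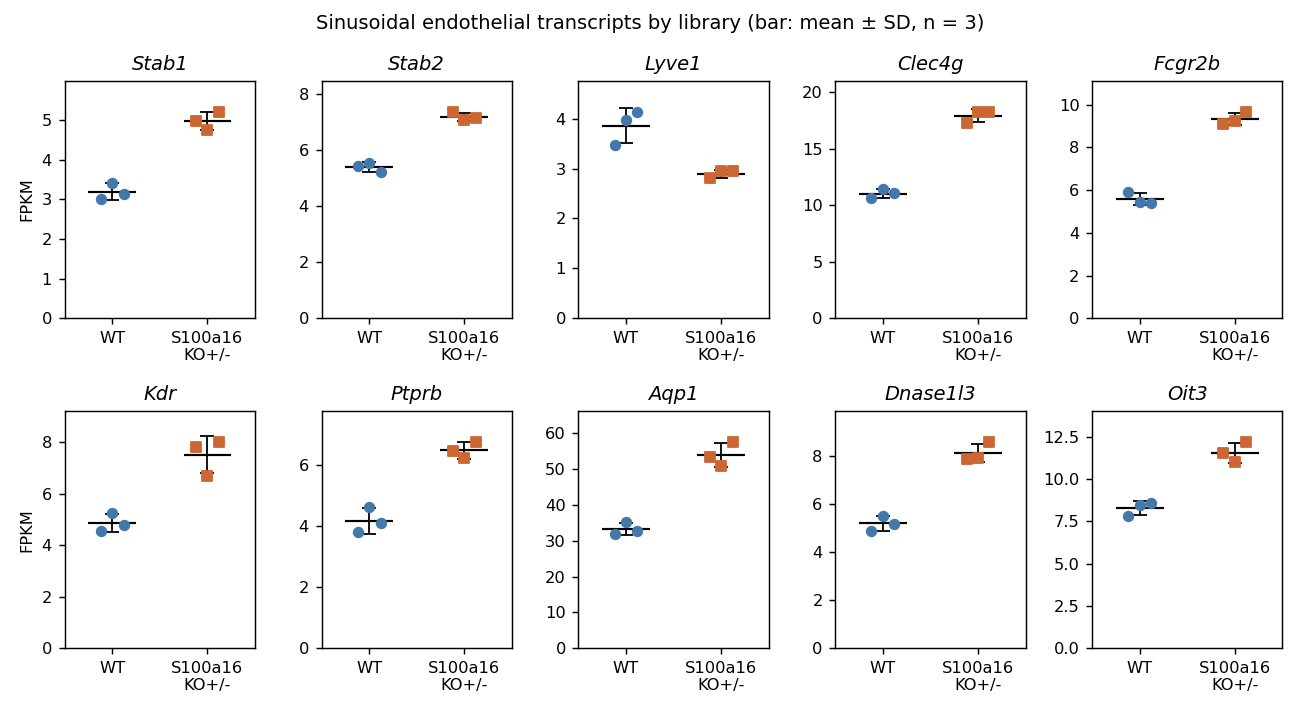
FPKM of each of the 10 sinusoidal endothelial transcripts (vertical axes from 0, one per gene) in the 3 WT libraries (circles) and the 3 S100a16KO+/- libraries (squares), with the mean and SD as bars. The S100a16KO+/- libraries lie above the WT libraries in 9 panels and below them for Lyve1, with no overlap in any panel.

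Stab1 and Stab2 encode the stabilins, large multidomain scavenger receptors of the sinusoidal surface. Stab1 (ENSMUSG00000042286, chromosome 14 from 31139013 to 31168641, minus strand) stood at 3.01, 3.42 and 3.14 FPKM in WT replicates 1, 2 and 3 and at 4.97, 4.74 and 5.20 FPKM in S100a16KO+/- replicates 1, 2 and 3. The lowest S100a16KO+/- library was thus above the highest WT library, and the log2 fold change was 0.63 (standard error 0.06, edgeR adjusted p = 1.40e-06). Stab2 (ENSMUSG00000035459, chromosome 10 from 86841198 to 87008025, minus strand), whose product clears hyaluronan from the blood, stood at 5.43, 5.54 and 5.21 FPKM in WT and at 7.37, 7.08 and 7.14 FPKM in S100a16KO+/- libraries. All S100a16KO+/- libraries were higher, with a log2 fold change of 0.41 (standard error 0.06, edgeR adjusted p = 0.000203), the smallest of the 9 rises. Nt5dc2, which overlaps Stab1 on the opposite strand, had 108 to 177 counts per library against 2442 to 4140 for Stab1.

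Lyve1 encodes the other hyaluronan receptor of the set, a link-domain protein found on sinusoidal and lymphatic endothelium and on some macrophages. Lyve1 (ENSMUSG00000030787, chromosome 7 from 110850607 to 110863239, minus strand) stood at 3.47, 3.98 and 4.14 FPKM in WT and at 2.81, 2.94 and 2.94 FPKM in S100a16KO+/- libraries. It was the 1 transcript of the 10 that was lower in every S100a16KO+/- library, with a log2 fold change of -0.42 (standard error 0.10, edgeR adjusted p = 0.00710), and it rested on 623 to 910 counts per library, the fewest of the set. With each library left out in turn its log2 fold change lay between -0.47 and -0.38, and the largest adjusted p over all 16 alternatives was 0.0345, without WT replicate 3. The ratio of Stab2 to Lyve1, each in FPKM, was 1.57, 1.39 and 1.26 in WT and 2.62, 2.40 and 2.43 in S100a16KO+/- libraries. Lyve1 made up 4.55% ± 0.327 (SD, n = 3) of the summed FPKM of the 10 transcripts in WT and 2.23% ± 0.107 (SD, n = 3) in S100a16KO+/- libraries (two-sided exact permutation p = 0.1, the smallest that 3 libraries against 3 allow; 0.2 after Benjamini-Hochberg adjustment over the 10 shares). The shares of Stab2 and Oit3 were also lower and those of Aqp1 and Clec4g higher in every S100a16KO+/- library, each with the same exact permutation p of 0.1, and the shares of the other 5 overlapped between genotypes.

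Clec4g encodes LSECtin, a C-type lectin, and Fcgr2b encodes the inhibitory receptor for IgG, which on sinusoidal cells takes up small immune complexes. Clec4g (ENSMUSG00000074491, chromosome 8 from 3707064 to 3718653, minus strand) stood at 10.6, 11.4 and 11.1 FPKM in WT and at 17.3, 18.3 and 18.2 FPKM in S100a16KO+/- libraries. The 2 ranges were far apart, with a log2 fold change of 0.69 (standard error 0.06, edgeR adjusted p = 1.82e-06). Fcgr2b (ENSMUSG00000026656, chromosome 1 from 170958617 to 170976547, minus strand) stood at 5.89, 5.46 and 5.39 FPKM in WT and at 9.09, 9.22 and 9.66 FPKM in S100a16KO+/- libraries. Its log2 fold change of 0.73 (standard error 0.07, edgeR adjusted p = 3.37e-06) was the highest of the set. Of the 31-base words in its transcripts, 5.78% also occur in transcripts of other genes, most often Fcgr3, so that reads could be shared between these paralogs. Fcgr3, an activating IgG receptor of myeloid cells, stood at 1.67 ± 0.302 FPKM in WT and 1.66 ± 0.0754 FPKM in S100a16KO+/- libraries (SD, n = 3 each). On the log2 scale the difference was -0.01 (standard error 0.19, edgeR adjusted p = 0.973). For the other 9 transcripts at most 0.733% of such words were shared.

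Kdr encodes VEGF receptor 2, the main signalling receptor for VEGF-A on endothelium, and Ptprb encodes VE-PTP, an endothelial phosphatase that dephosphorylates the angiopoietin receptor TIE2 and VE-cadherin. Kdr (ENSMUSG00000062960, chromosome 5 from 75932827 to 75978458, minus strand) stood at 4.56, 5.24 and 4.80 FPKM in WT and at 7.83, 6.69 and 8.00 FPKM in S100a16KO+/- libraries. S100a16KO+/- replicate 2 was the lowest of its genotype and still above every WT library, and the log2 fold change was 0.61 (standard error 0.06, edgeR adjusted p = 3.14e-06). Ptprb (ENSMUSG00000020154, chromosome 10 from 116275523 to 116389535, plus strand) stood at 3.81, 4.63 and 4.11 FPKM in WT and at 6.49, 6.23 and 6.76 FPKM in S100a16KO+/- libraries. Its log2 fold change was 0.63 (standard error 0.06, edgeR adjusted p = 2.56e-06), again without overlap.

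Aqp1 encodes a water channel of endothelial cells, which erythrocytes and bile duct cells also carry. Aqp1 (ENSMUSG00000004655, chromosome 6 from 55336432 to 55348555, plus strand) was the most abundant of the 10 per length, at 31.8, 35.1 and 32.7 FPKM in WT and at 53.3, 50.8 and 57.4 FPKM in S100a16KO+/- libraries. It rose 1.61-fold, a log2 fold change of 0.69 (standard error 0.05, edgeR adjusted p = 2.83e-07), the smallest adjusted p of the set. The erythroid markers moved the other way in the same libraries: all 5 were lower, from 260.6 to 287.9 FPKM summed in WT to 25.2 to 26.2 FPKM in S100a16KO+/- libraries, and the median of their log2 fold changes was -3.53. Hbb-bs and Hba-a1, haemoglobin chain genes with near-identical paralogs, had the highest FPKM among them, with log2 fold changes of -3.43 and -3.53. Bile duct markers were low, with Cldn7 and Cftr at 12 counts or fewer in each library, Krt19 at 0.0942 ± 0.0901 and 0.285 ± 0.128 FPKM in WT and S100a16KO+/- libraries (SD, n = 3 each), and a summed level of 1.71 to 2.44 FPKM and 2.05 to 2.54 FPKM. Among the 4 that were tested, 1, Sox9, was lower in edgeR and in DESeq2 and 0 were higher (0 also at an unadjusted p under 0.05), with Spp1, the most abundant, at a log2 fold change of 0.17 (edgeR adjusted p = 0.629).

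Dnase1l3 and Oit3 encode secreted proteins, a DNase that degrades DNA in chromatin and in circulating particles, and a zona pellucida domain protein of the liver. Dnase1l3 (ENSMUSG00000025279, chromosome 14 from 7964533 to 7994573, minus strand) stood at 4.89, 5.51 and 5.19 FPKM in WT and at 7.89, 7.94 and 8.58 FPKM in S100a16KO+/- libraries. It rose by a log2 fold change of 0.64 (standard error 0.06, edgeR adjusted p = 2.51e-06), with every S100a16KO+/- library above every WT library. Oit3 (ENSMUSG00000009654, chromosome 10 from 59422958 to 59441778, minus strand) stood at 7.84, 8.46 and 8.58 FPKM in WT and at 11.5, 11.0 and 12.2 FPKM in S100a16KO+/- libraries. Its rise, a log2 fold change of 0.47 (standard error 0.06, edgeR adjusted p = 6.31e-05), was smaller than that of the other transcripts except Stab2 and Lyve1.

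**Figure D2:**
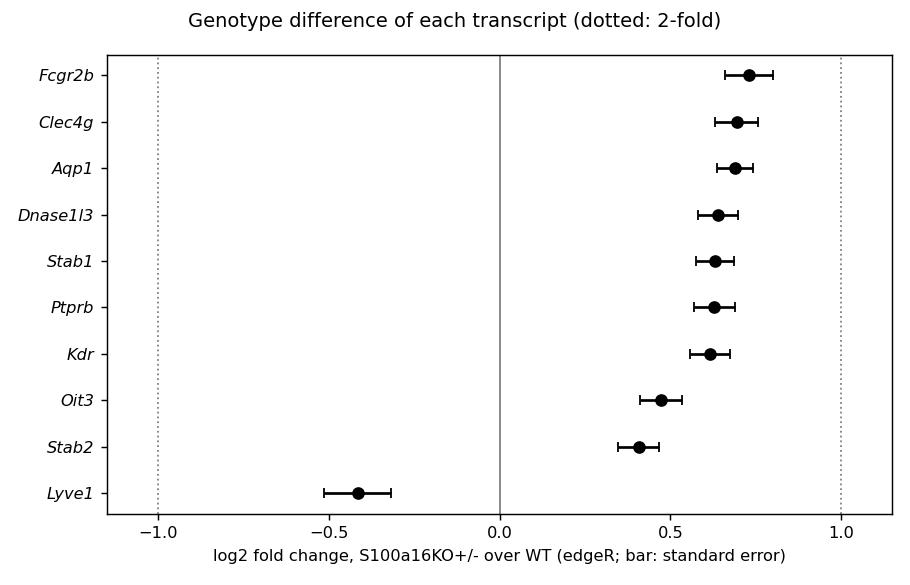
Log2 fold change of the 10 transcripts, S100a16KO+/- over WT, from edgeR (points) with standard errors (bars), with dotted lines at a 2-fold change in either direction. The values run from -0.42 for Lyve1 to 0.73 for Fcgr2b, with 7 transcripts between 0.61 and 0.73.

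The order of the levels changed in its lower part. In WT libraries the mean FPKM ran from Aqp1 (33.2) over Clec4g (11.0) and Oit3 (8.30) to Fcgr2b (5.58), Stab2 (5.40), Dnase1l3 (5.20), Kdr (4.87), Ptprb (4.18), Lyve1 (3.86) and Stab1 (3.19). Each of the neighbours from Fcgr2b to Lyve1 overlapped in their WT values, whereas the first 4 transcripts in this order were separate from each other and Stab1 lay below Lyve1 without overlap. In S100a16KO+/- libraries the order ran from Aqp1 (53.8), Clec4g (17.9) and Oit3 (11.6) over Fcgr2b (9.32), Dnase1l3 (8.14), Kdr (7.50), Stab2 (7.20) and Ptprb (6.49) to Stab1 (4.97) and Lyve1 (2.90). There the neighbours Dnase1l3 and Kdr, and Kdr and Stab2, overlapped, and Lyve1 lay below Stab1 in every library. Within a genotype the libraries spread little, with coefficients of variation of the FPKM of 3.15% for Stab2 as the smallest in WT, where Ptprb (4.18 ± 0.419 FPKM, SD, n = 3) had the widest relative spread, and from 2.11% for Stab2 to 9.52% for Kdr in S100a16KO+/- libraries.

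Bases before the RefSeq transcript start (GRCm38.p6) were compared for 6 of the 10 genes: Aqp1, Clec4g, Fcgr2b, Kdr, Stab1 and Stab2. The 250 bases before the start are shown for Aqp1, the most abundant transcript, and for Kdr and Stab1, a signalling and a scavenger receptor that rose by a like amount. Capitals mark matches, on either strand, to AGGAAG, the core bound by ETS factors such as ERG, and to TGCTGA, a part of the site of MAF factors. ETS, GATA and MAF factors are known regulators of endothelial or sinusoidal genes.
Aqp1, chr6:55336049-55336298, plus strand: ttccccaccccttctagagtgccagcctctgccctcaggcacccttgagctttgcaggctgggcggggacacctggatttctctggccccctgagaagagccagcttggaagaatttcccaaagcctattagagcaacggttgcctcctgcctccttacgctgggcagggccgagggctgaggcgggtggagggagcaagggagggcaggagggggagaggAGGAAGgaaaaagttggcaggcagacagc
Kdr, chr5:75978456-75978705, minus strand: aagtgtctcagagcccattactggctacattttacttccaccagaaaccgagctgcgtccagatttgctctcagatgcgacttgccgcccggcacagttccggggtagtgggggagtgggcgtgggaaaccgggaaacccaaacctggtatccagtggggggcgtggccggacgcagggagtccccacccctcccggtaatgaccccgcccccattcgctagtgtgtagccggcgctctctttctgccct
Stab1, chr14:31168642-31168891, minus strand: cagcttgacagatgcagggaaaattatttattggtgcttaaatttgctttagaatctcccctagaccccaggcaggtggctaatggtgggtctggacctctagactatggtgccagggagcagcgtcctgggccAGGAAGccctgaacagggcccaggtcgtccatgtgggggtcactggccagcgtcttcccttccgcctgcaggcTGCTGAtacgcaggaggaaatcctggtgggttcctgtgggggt
AGGAAG was found in 4 of the 6 windows, those of Aqp1, Clec4g, Stab1 and Stab2, and in 29.5% of all 32851 promoter windows of the same length. TGCTGA was found in 1 of the 6, that of Stab1, where 16.1% of all windows hold it. AGATAA, 1 form of the GATA site, was found in 0 of the 6 and in 9.99% of all windows, and other forms were not searched. The Kdr window held none of the 3 letter strings.

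Other endothelial genes were measured in the same libraries to set the 10 transcripts beside their cell type. Of 51 tested genes in 3 endothelial lists that exclude the 10, 33 were higher and 2 were lower in S100a16KO+/- libraries (edgeR, adjusted p under 0.05), and their median on the log2 scale was 0.54. In the list of other sinusoidal genes, 15 of 18 were higher, 0 were lower in edgeR or in DESeq2 (1, Gata4, at an unadjusted p under 0.05) and the median was 0.58. Its most abundant members were Ehd3, an endocytic trafficking gene (5.44 ± 0.281 to 8.39 ± 0.427 FPKM, SD, n = 3 each), Gpr182, an atypical chemokine receptor (5.42 ± 0.254 to 8.74 ± 0.892), Mrc1, the mannose receptor (5.41 ± 0.396 to 7.77 ± 0.311), and Bmp2, a ligand that raises hepcidin in hepatocytes (5.26 ± 0.738 to 7.88 ± 0.330), with log2 fold changes of 0.62, 0.69, 0.51 and 0.58. The second hepcidin-inducing ligand, Bmp6, was higher by 0.93, and Wnt2, a Wnt ligand of pericentral sinusoids, by 0.51. F8 (coagulation factor VIII), Tspan7, Ltbp4, Dll4 and Maf were higher as well, by 0.47, 0.76, 0.54, 0.58 and 0.25. The call of Wnt2 was lost without WT replicate 1 or S100a16KO+/- replicate 3 (adjusted p up to 0.0561). Dll4 lost its call without any 1 library except WT replicate 2 and S100a16KO+/- replicate 2, and Maf without any 1 library except S100a16KO+/- replicate 1 (adjusted p up to 0.108 and 0.164). Both calls were also lost with limma on log2(FPKM + 1) (adjusted p = 0.0649 and 0.082), and that of Maf with the replicate number as a block. The transcription factor gene Gata4 stood at 2.86 ± 0.249 FPKM in WT and 2.37 ± 0.287 FPKM in S100a16KO+/- libraries (SD, n = 3 each). On the log2 scale the difference was -0.28 (standard error 0.13, edgeR adjusted p = 0.137), and it was called lower without S100a16KO+/- replicate 2 (adjusted p = 0.0384).

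In the list of pan-endothelial genes, which is not limited to sinusoidal genes, 13 of 22 were higher and 1 was lower, and the median was 0.55. Eng (endoglin), Plvap and Cldn5 were among the most abundant and were higher by 0.45, 0.73 and 0.64. Pecam1 and Cdh5, which encode the junction proteins CD31 and VE-cadherin, were higher by 0.45 and 0.39 (standard errors 0.09 and 0.08, edgeR adjusted p = 0.00138 and 0.00345). The other called genes with a mean of at least 1 FPKM were Esam, Mmrn2, Egfl7, Robo4, Icam2 and the transcription factor gene Erg, all higher, by between 0.38 for Robo4 and 0.89 for Icam2. Erg lost its call without S100a16KO+/- replicate 2 (adjusted p up to 0.0995), Robo4 without any 1 library except WT replicate 1 (up to 0.154) and Icam2 without any 1 library except replicate 2 of either genotype (up to 0.0936). Robo4 also lost its call with the replicate number as a block. S1pr1, a receptor for sphingosine 1-phosphate, went the other way. It stood at 8.93, 9.42 and 9.11 FPKM in WT and at 4.60, 4.34 and 3.94 FPKM in S100a16KO+/- libraries, a log2 fold change of -1.10 (standard error 0.09, edgeR adjusted p = 3.62e-07). S1pr1 and Lyve1 were thus lower in every S100a16KO+/- library while Pecam1, Cdh5, Stab1 and Stab2 were higher in every one.

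**Figure D3:**
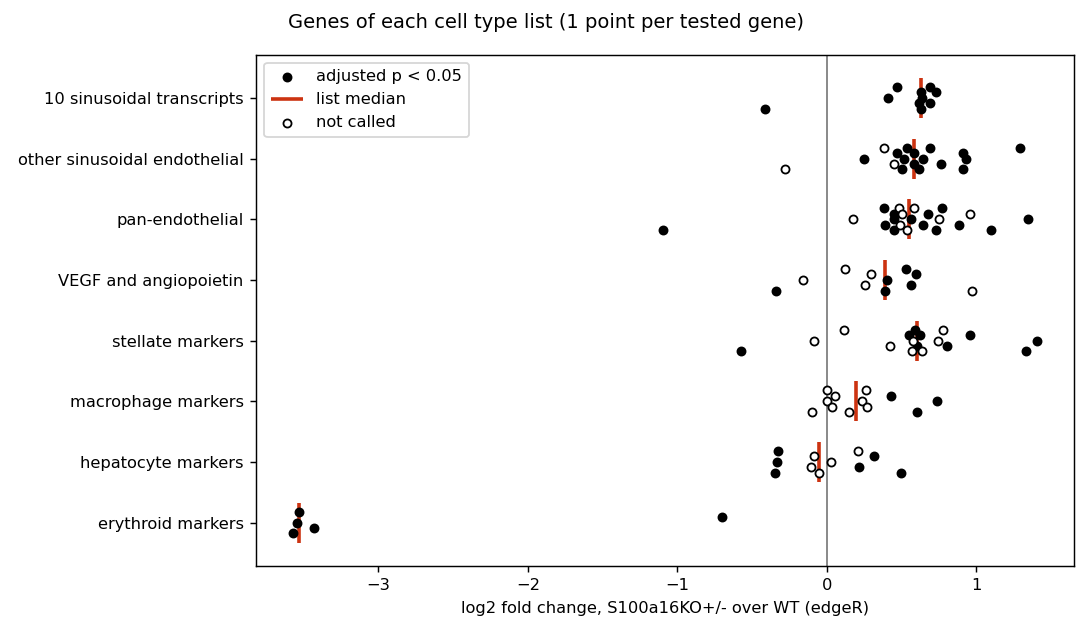
Log2 fold change (S100a16KO+/- over WT, edgeR) of every tested gene in 8 lists, filled where the adjusted p was under 0.05 and open otherwise, with the median of each list as a vertical bar. The medians are 0.63 for the 10 sinusoidal transcripts, 0.58 and 0.55 for the other sinusoidal and pan-endothelial genes, 0.61 for stellate cell markers, 0.19 for macrophage markers and -0.05 for hepatocyte markers, while erythroid markers lie at -3.53.

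The other ligands and receptors of the VEGF and angiopoietin system were set beside Kdr and Ptprb. Of 11 tested genes in this list, which leaves out Kdr and Ptprb, 5 were higher and 1 was lower in edgeR, 5 were higher and 2 lower in DESeq2, and the median was 0.39. Vegfa, the ligand of KDR, which hepatocytes make, was the most abundant at 35.5 ± 0.803 FPKM in WT and 32.0 ± 1.14 FPKM in S100a16KO+/- libraries (SD, n = 3 each). Its log2 fold change of -0.16 did not pass the threshold (standard error 0.06, edgeR adjusted p = 0.0661), while DESeq2 called it lower (adjusted p = 0.0282) and the adjusted p ran from 0.0236 to 0.242 over the alternatives. Vegfb, a ligand of the receptor FLT1, was higher by 0.56, a call lost without WT replicate 2 or S100a16KO+/- replicate 1 (adjusted p up to 0.0723). Among the receptors, Flt4 was higher by 0.39, and Tek and Tie1, which encode the angiopoietin receptor TIE2 and its partner, by 0.53 and 0.60. Flt1 was also called, with a log2 fold change of 0.41 (standard error 0.09, edgeR adjusted p = 0.00624) at a mean below 1 FPKM. The co-receptor genes Nrp1 and Nrp2 had log2 fold changes of 0.12 (standard error 0.07, edgeR adjusted p = 0.205) and -0.34 (standard error 0.09, edgeR adjusted p = 0.0129), and the call of Nrp2 was lost with limma and without WT replicate 2 or S100a16KO+/- replicate 3 (adjusted p up to 0.0798). Of the angiopoietins, Angpt1 was at 12 counts or fewer in each library and Angpt2 had at most 59 counts in any.

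**Figure D4:**
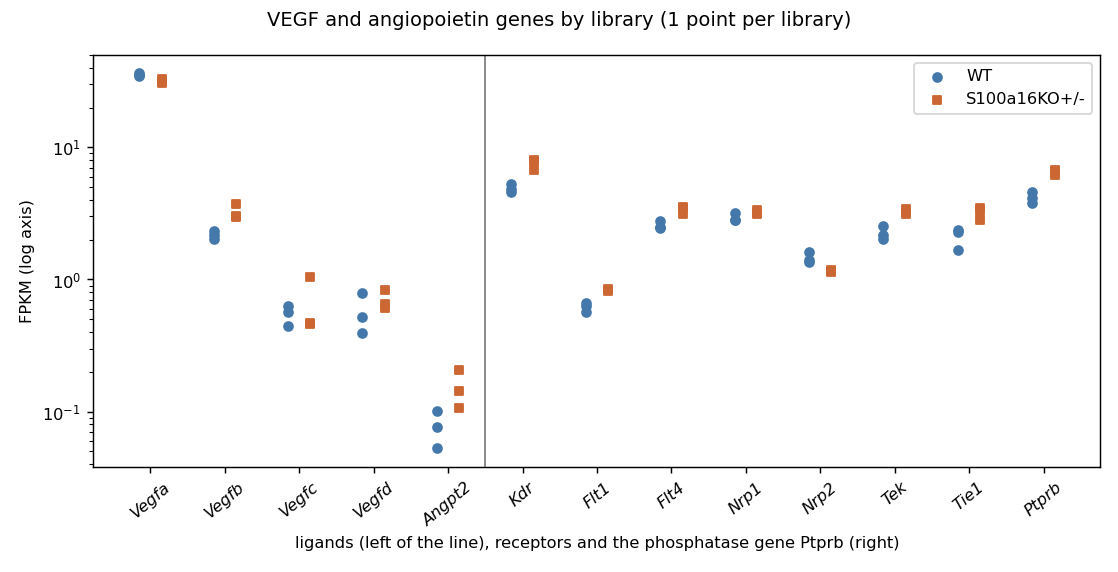
FPKM (log axis) of VEGF and angiopoietin genes, ligands left of the vertical line and receptors with Ptprb right of it, 1 point per library (circles WT, squares S100a16KO+/-). Vegfa lies between 30.9 and 36.4 FPKM, while Kdr, Flt1, Flt4, Tek, Tie1 and Ptprb lie higher in all 3 S100a16KO+/- libraries than in the WT libraries.

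Genes that share a ligand or a function with the 10 transcripts were counted as well. Of 13 tested Fc and scavenger receptor genes, 7 were higher and 1 was lower (median log2 fold change 0.27). With limma on log2(FPKM + 1), 3 of 12 were higher and 0 were lower. The most abundant were Fcgrt, the neonatal Fc receptor (log2 fold change 0.17, edgeR adjusted p = 0.0212), Lrp1, an endocytic receptor of hepatocytes (-0.18, edgeR adjusted p = 0.0160), and Scarb1, the HDL receptor (0.78, edgeR adjusted p = 4.18e-07). Fcgrt and Lrp1 lost their calls with limma on log2(FPKM + 1) (adjusted p = 0.0791 and 0.119). Fcgrt also lost it without WT replicate 1, WT replicate 2 or S100a16KO+/- replicate 1, and Lrp1 without WT replicate 2 or S100a16KO+/- replicate 3. Of the hyaluronan genes outside the set, 1 of 5 tested (Cemip2) was higher and 0 were lower in edgeR and in DESeq2. At an unadjusted p under 0.05, 2 were higher and 0 were lower in each. The hyaluronidase genes Hyal2 and Hyal1 had log2 fold changes of 0.06 and -0.04 (standard error 0.07 each). The hyaluronan synthase genes Has1, Has2 and Has3 were at 12 counts or fewer in each library. Of the 4 tested aquaporins outside Aqp1, 1 (Aqp11) was lower and 0 were higher in edgeR and in DESeq2. At an unadjusted p under 0.05, 0 were higher in either, 1 was lower in edgeR and, without the filter, 2 of 6 in DESeq2. Aqp11 lost its call with limma on log2(FPKM + 1) (adjusted p = 0.0796) and on log2(FPKM + 0.1). Aqp9 and Aqp8, the abundant aquaporins of hepatocytes, had log2 fold changes of 0.09 and -0.16 (edgeR adjusted p = 0.251 and 0.216). Of the 5 other DNase genes, 0 were called in edgeR or DESeq2, and at an unadjusted p under 0.05 edgeR gave 1 (Dnase1l1, log2 fold change 0.44) and DESeq2 0. Dnase2b and Dnase2a were the most abundant, with log2 fold changes of -0.08 and 0.21.

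Markers of the other cells that a hepatocyte preparation can hold moved unequally beside the endothelial transcripts. Of 17 stellate cell markers, 8 were higher and 1 was lower, at a median of 0.61 and a summed level of 20.1 to 21.1 FPKM in WT and 28.9 to 30.7 FPKM in S100a16KO+/- libraries. Among the most abundant were Ecm1, Dcn and Colec11, which rose by log2 fold changes of 0.59, 0.96 and 0.61. Of 12 macrophage markers, 3 were higher and 0 were lower in edgeR and in DESeq2, with a median of 0.19. At an unadjusted p under 0.05, 6 were higher in edgeR and 5 in DESeq2, and 0 were lower in either. Their summed level was 74.5 to 88.1 FPKM in WT and 90.5 to 98.6 FPKM in S100a16KO+/- libraries. Clec4f, a marker of Kupffer cells, the resident macrophages, stood at 12.5 ± 1.55 FPKM in WT and 12.8 ± 1.53 FPKM in S100a16KO+/- libraries (SD, n = 3 each). On the log2 scale the difference was 0.04 (standard error 0.08, edgeR adjusted p = 0.795). Cd5l, C1qa and C1qb had log2 fold changes of 0.24, 0.26 and 0.43, of which the last passed the threshold (edgeR adjusted p = 0.00476). Marco and Cd68 were also called, higher by 0.74 and 0.60 (edgeR adjusted p = 0.00118 and 0.0145). Cd68 lost its call without WT replicate 3 or S100a16KO+/- replicate 2.

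Of 11 hepatocyte markers, 3 were higher, 3 were lower and the median was -0.05. Alb, Apoa1, Ahsg and Ttr were the most abundant, with log2 fold changes of -0.05, 0.21, 0.22 and -0.33. The call of Ahsg was lost without WT replicate 3 (adjusted p = 0.0602), and Apoa1, not called in edgeR, was called in 10 of 16 alternatives. Of 11 lymphocyte markers, 1 was lower in edgeR and 0 in DESeq2, and 0 were higher in either (1 in edgeR and 0 in DESeq2 at an unadjusted p under 0.05), with Trbc2 and Cd79a at log2 fold changes of 0.42 and 0.39 (edgeR adjusted p = 0.607 and 0.543) and a summed level of 2.80 to 3.16 FPKM in WT and 2.67 to 4.25 FPKM in S100a16KO+/- libraries. Of 4 tested neutrophil markers, 0 were called in edgeR or DESeq2, although at an unadjusted p under 0.05 edgeR gave 1 and DESeq2, without the filter, 2 of 6, with S100a9 and S100a8 at 0.27 and 0.83 (edgeR adjusted p = 0.520 and 0.151) and 3.12 to 5.75 FPKM summed in WT and 5.29 to 6.31 FPKM in S100a16KO+/- libraries. The stellate and erythroid markers therefore moved with the genotype beside the endothelial transcripts, in opposite directions, and their part in the result was not tested.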

How the data were processed

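Primary hepatocytes of WT and S100a16KO+/- mice, all given alcohol, were profiled by RNA-seq with 3 libraries per genotype. The authors deposited an estimated count, not scaled for library size, and an FPKM value, scaled by the authors for transcript length and library size, for each gene and library. Per the submitters' processing notes, cutadapt 1.9, HISAT2 2.0.4, UMI-tools, StringTie 1.3.4d, DESeq2 and edgeR were used and the build was mm10. Their roles, the annotation, whether counting used strand and whether duplicate fragments were removed are not given in the sources used here. In every library more genes held 4 counts than 3 or 5, and 1 fragment was taken as about 4 counts. A count of 0 thus allowed up to 3 fragments, or 12 counts (0.167 to 0.177 CPM), counting error only.

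Estimated counts, rounded, were compared with edgeR 4.0.16 in R 4.3.3 (TMM, filterByExpr, robust quasi-likelihood fit, two-sided, no covariate), with Benjamini-Hochberg adjustment over 15957 genes and a threshold of 0.05. Standard errors were taken from the quasi-likelihood statistic. The groups share replicate numbers, but same-numbered libraries did not deviate together (correlations of -0.05, -0.02 and 0.05), so no pairing was used. Alternatives were DESeq2 1.42.0, limma 3.58.1 on log2(FPKM + 1) and log2(FPKM + 0.1) for means of 1 FPKM or more, other scalings and filters, counts divided by 4, the replicate number as a block, the criterion of the study (unadjusted p under 0.05 and at least 2-fold), leaving out each library and, added after the data were seen, leaving out 2 libraries that stood apart on the second principal component. The main edgeR fit, DESeq2 and limma on log2(CPM + 1) were tested on simulated counts, and the other alternatives were not.

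The 10 transcripts and the gene lists (endothelial, VEGF and angiopoietin, hyaluronan, Fc and scavenger receptor, aquaporin and DNase genes, and markers of hepatocytes, macrophages, stellate cells, cholangiocytes, lymphocytes, neutrophils and erythroid cells) were chosen with earlier results of these data known. From each list the tested genes with the highest FPKM are named. The called genes whose mean FPKM was 1 or more are also named from the endothelial lists and the macrophage markers. Positions are those of the table, on GRCm38.
The RefSeq promoter table held windows for 6 of the 10 genes. Some genes of the marker lists are counted in their list but not reported here by name.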

Additional observations from a re-analysis of the deposited data

How the results depend on the processing

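The 10 transcripts kept their direction and an adjusted p under 0.05 under all 16 refitted alternatives, with 9 higher and 1 lower each time. This held for other scalings, other filters, DESeq2, limma on FPKM, counts divided by 4 and the replicate block (10 called), and without both WT replicate 1 and S100a16KO+/- replicate 2. Without each library in turn, 10 of the transcripts, 28 to 32 of the other endothelial genes and 2734 to 3302 of all genes were called, against 3643 of all genes in full. The replicate number as a block gave 33 other endothelial genes and 3082 genes in all, and it changed no call among the 10; the same-numbered libraries share only a number. The count over all genes moved by over 1.5 times with limma. Those over the 10 transcripts and the other endothelial genes did not (10 and 25 called). All of these counts moved by over 1.5 times with the criterion of the study. With limma, 2228 genes in all were called on log2(FPKM + 1) and 2208 on log2(FPKM + 0.1), among the 9054 genes whose mean FPKM was 1 or more. With the criterion of the study, 0 of the 10 transcripts, 4 of the other endothelial genes and 721 of all genes were called, since that criterion asks for a 2-fold change. Small counts within lists depended on single libraries: the other endothelial genes called lower were 2 in full, 4 without S100a16KO+/- replicate 2 and 1 without WT replicate 2 or S100a16KO+/- replicate 3. Without S100a16KO+/- replicate 3, 2 hyaluronan genes instead of 1 were higher, and without it or WT replicate 2, 1 neutrophil marker instead of 0. The 1 lower lymphocyte marker was called without WT replicate 3 and not without any other single library. Depth limited the low genes, such as Angpt1 and the hyaluronan synthases, and not the 10 transcripts, which had at least 623 counts in every library.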

Other observations

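Outside the 10 transcripts, 11928 tested genes had a mean level of 1 CPM or more. Those whose level over the 6 libraries lay closest to the median of the 10, by mean absolute distance of centred log2(CPM + 1), were Eva1b, Pja2, Slc38a10, Tmem258 and Il6st. Their distances were 0.0156, 0.0286, 0.0288, 0.0292 and 0.0351, and their log2 fold changes 0.83, 0.63, 0.63, 0.71 and 0.56. Tmem258 encodes a subunit of the oligosaccharyltransferase and Il6st the shared receptor chain gp130. Among the 10 themselves, the distance of Stab1 was 0.00504, that of Stab2 0.106 and that of Lyve1 0.496. These 3 help to set the median, so their distances are no yardstick for the other genes. With 3 libraries per genotype the distance mostly ranks genes by the size of the genotype difference in log2(CPM + 1). The added 1 makes that difference smaller than the log2 fold change for genes of low CPM, so the ranking also depends on the level. It carries no test.

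Within a genotype the transcripts showed small common shifts in CPM, which were not the same in FPKM. In S100a16KO+/- replicate 2, 9 of the 10 lay above their genotype mean of log2 CPM (median shift 0.03), all but Kdr, and in WT replicate 3 and S100a16KO+/- replicate 1 only 2 of the 10 did (median shifts -0.04 and -0.04). In FPKM, S100a16KO+/- replicate 2 instead had the lowest summed level of its genotype (124.9 FPKM, against 128.6 and 136.1 FPKM in replicates 1 and 3). Its TMM factor, which enters the CPM, was the lowest of all libraries (0.948). The share of all tested genes above their genotype mean in each library was not counted. A shift of the whole library therefore cannot be told apart from one of these transcripts.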
